A study of Mus musculus with 7 samples.

Results

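Cytosolic ribosomal protein genes encode the proteins that join ribosomal RNA to form the small and large subunits of the cytoplasmic ribosome. The set was taken by symbol (Rpl or Rps with a number, plus Rplp0, Rplp1, Rplp2 and Rpsa, without the Rps6k kinases and pseudogenes) and holds 83 of the 31253 annotated genes, 51 of the large and 32 of the small subunit. The levels come from droplet single-cell RNA-seq of mouse lung, which counts each captured mRNA molecule near its 3′ end by a unique molecular identifier (UMI), whatever the length of the transcript. Lungs came from 4 Smad4iko mice, which carry floxed Smad4 and the tamoxifen-inducible Rosa26-creERT2, and from 3 Smad4fl/fl mice, floxed littermates without Cre. Both groups received tamoxifen (75 mg/kg, injected into the peritoneum 5 times over postnatal days 21 to 26); their peripheral lung was taken and digested with collagenase when they were 8 weeks old. Each library is 1 mouse, and the Cre is driven from Rosa26 and not confined to a cell type. All groups carry the floxed alleles and saw tamoxifen, so a Cre effect apart from Smad4 loss cannot be told apart from the genotype.

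Ribosomal protein mRNAs are among the most abundant in most cells, and their proteins are made in near-equal amounts. Most of these mRNAs begin with a terminal oligopyrimidine tract, a C followed by pyrimidines, through which mTOR signalling and Larp1 set their translation. In blood and lung, small resting lymphocytes are known for a high fraction of such mRNA, and mature neutrophils for little ribosome synthesis. Several members have a paralog with tissue-restricted expression in the mouse: Rpl3l in striated muscle, Rpl10l and Rpl39l in the testis.

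The starts of 63 members could be read from RefSeq promoter windows on GRCm38.p6. A C followed by at least 4 pyrimidines lay within 5 bases of an annotated start in 29 of the 63 members (46.0%) and in 21.2% of 27025 genes. A gene with several annotated starts was counted if any of its windows held the sequence, here and for the motifs. The ETS-type motif CCGGAAG, read on both strands in the 300-base window, was in 41.3% of members against 9.93% of genes, and TATAAA was in 11.1% of members against 15.7% of genes. These are counts of letters in windows around annotated starts, which need not be the starts used in lung. The windows below run from 30 bases before to 20 bases from the annotated start, with the tract in capitals. They show the member with most UMIs (Rps24, chr14:24490648-24490697, plus strand), Rps27 (chr3:90213629-90213678, minus strand) and its paralog Rps27l (chr9:66946056-66946105, plus strand), and 2 members that departed from the rest in neutrophils: Rps9 (chr7:3704011-3704060, plus strand) and Rpl3l (chr17:24727796-24727845, plus strand). The window of Rpl3l held no tract and appears without capitals. Where a gene had several annotated starts, the window printed is from a start with a tract if there was any. Rps24, Rps27l and Rpl3l had 2 annotated starts each.
Rps24: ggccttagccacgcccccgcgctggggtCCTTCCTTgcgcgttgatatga
Rps27: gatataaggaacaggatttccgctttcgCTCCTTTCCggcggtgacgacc
Rps27l: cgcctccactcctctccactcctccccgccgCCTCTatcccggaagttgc
Rps9: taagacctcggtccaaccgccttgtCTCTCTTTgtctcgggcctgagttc
Rpl3l: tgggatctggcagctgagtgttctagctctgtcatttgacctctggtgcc
The tract was 8 bases long in Rps24 and Rps9, 9 in Rps27 and 5 in Rps27l.

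The 7 libraries held 46449235 to 66557262 UMIs, and 50955 of 55671 barcodes passed the filters (at least 600 UMIs and 300 genes, at most 20% mitochondrial UMIs). Cell types were gated by marker genes; 72.6% to 88.7% of kept cells passed exactly 1 gate, and 8 types had at least 30 cells in every library. The genes leading each of these 8 gates held 2 to 7 of its own markers among the top 10 and none of another type. The same markers set the gates, so this count is no separate check of them. Libraries shared 12 to 29 barcodes pairwise. Hemoglobin RNA was highest in Smad4iko 3 and 4, at 0.0209% to 0.162% of UMIs in the 8 types, and at most 0.00973% elsewhere. Smad4 RNA was lower in Smad4iko in all 8 types, by 0.11 to 0.74 on the log2 scale, with no type past an adjusted p of 0.05 in edgeR's quasi-likelihood test. The 3′ tag may lie outside the deleted exon, whose position the labels do not give, so these levels check the labels poorly.

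Members made up very different shares of the mRNA of different lung cells: at least 26.1% of the UMIs of T and B cells and at most 5.08% of those of neutrophils. Averaged over the 7 libraries, the share was 35.7 ± 2.65% in T cells (SD, n = 7), 29.8 ± 2.45% in B cells, 24.2 ± 1.78% in conventional type 1 dendritic cells (cDC1), 19.5 ± 2.45% in NK cells, 13.6 ± 0.818% in alveolar macrophages, 11.0 ± 0.504% in general capillary cells (gCap), 7.16 ± 1.07% in aerocytes (aCap) and 4.25 ± 0.624% in neutrophils. This order was the same in every library. Each of the 7 neighbouring pairs differed in the same direction in 7 of 7 libraries (two-sided exact permutation test of signs within libraries, p = 0.0156, the smallest the design allows; adjusted p = 0.0156 over the 7 pairs). The smallest gap between neighbours was that of alveolar macrophages over gCap, 2.60 ± 0.821 percentage points, and the largest that of T cells over B cells, 5.93 ± 0.896 points. T cells held 6.49 to 11.0 times the share of neutrophils of the same lung (median 8.42). Set against the mean of the other 7 types, 7 types differed (exact permutation test, adjusted p = 0.0179), while NK cells lay 1.55 points above it in 5 of 7 libraries (adjusted p = 0.0625).

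**Figure D1:**
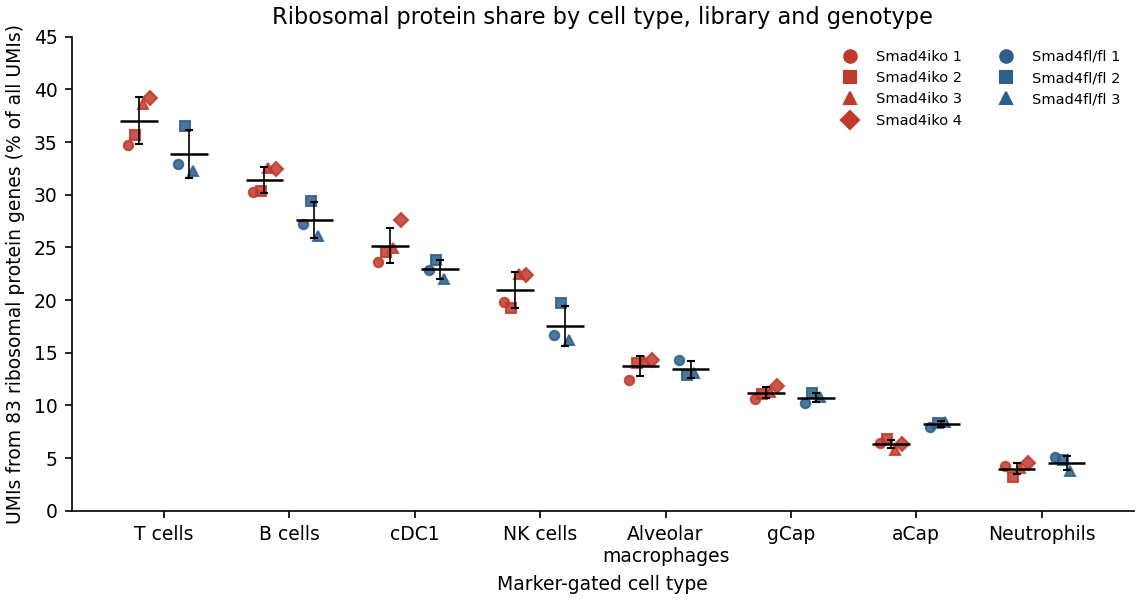
Share of all UMIs that came from the 83 ribosomal protein genes (percent, y axis) in 8 marker-gated cell types (x axis); each symbol is 1 library, with Smad4iko in red on the left and Smad4fl/fl in blue on the right of each type, and bars give mean and SD. Shares step down from 35.7% in T cells to 4.25% in neutrophils, and the genotypes do not overlap in B cells and aCap.

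In T cells the shares were 34.7%, 35.6%, 38.6% and 39.2% in Smad4iko 1 to 4, against 33.0%, 36.5% and 32.2% in Smad4fl/fl 1 to 3. In neutrophils they were 4.22%, 3.24%, 4.02% and 4.52% in Smad4iko 1 to 4, against 5.08%, 4.82% and 3.82% in Smad4fl/fl 1 to 3. The gap between these types was thus many times wider than the spread between mice of either genotype. Per cell, T cells held 2260 to 2493 member UMIs in Smad4iko and 1949 to 2491 in Smad4fl/fl, beside 3574 to 4685 and 3388 to 5242 UMIs of other genes. Neutrophils held 117 to 153 member UMIs per cell in Smad4iko and 107 to 154 in Smad4fl/fl, beside 2785 to 3680 and 2105 to 3583 UMIs of other genes. Neutrophils fell short of T cells far more in members than in other genes. cDC1 had the deepest profiles, a median of 16748 to 18144 UMIs in Smad4iko and 12636 to 21002 in Smad4fl/fl, and ranked only below lymphocytes of the T and B lineages. The order of shares did not follow the order of depth.

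Of 4 further types with 20 or more cells in every library, cDC2 lay between cDC1 and NK cells (21.0 ± 2.06%), and interstitial macrophages (15.6 ± 2.42%), fibroblasts (14.3 ± 1.81%) and non-classical monocytes (13.6 ± 1.47%) lay among the alveolar macrophages. The steps between interstitial macrophages and fibroblasts, fibroblasts and alveolar macrophages, and alveolar macrophages and non-classical monocytes were within the spread between libraries (exact permutation tests, adjusted p = 0.210, 0.447 and 0.938). Ciliated cells, with 10 or more cells in 6 libraries, spanned 5.20% to 7.47%. Platelets in the 3 libraries with 10 or more of them (Smad4iko 1 to 3) held 1.38% to 2.13%; platelets lack a nucleus and keep little mRNA. In the other 4 libraries, 4 to 9 cells passed the platelet gate and held 14.1% in Smad4iko 4, against 12.1%, 17.8% and 14.2% in Smad4fl/fl 1 to 3, so the shares under this gate lay at separate levels.

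Within T cells, naive cells held more ribosomal protein mRNA than effector cells. Naive T cells had shares of 37.5%, 38.2%, 41.6% and 42.7% in Smad4iko 1 to 4, against 34.7%, 38.3% and 34.4% in Smad4fl/fl 1 to 3. Effector T cells had 25.6%, 26.8%, 26.8% and 27.3% in Smad4iko 1 to 4, against 24.7%, 26.3% and 22.9% in Smad4fl/fl 1 to 3. The states did not overlap: the difference was 12.5 ± 1.94 points and held in 7 of 7 libraries (exact permutation test, p = 0.0156, adjusted p = 0.0469 over 3 comparisons). Naive cells held more member UMIs per cell, 1957 to 2580 against 1645 to 2244 in effector cells, and fewer UMIs of other genes, 3158 to 4908 against 4608 to 6648; each held in 7 of 7 libraries. Effector cells were also deeper, with median UMIs of 5415 to 7706.5, against 4782.5 to 7194 in naive cells.

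Non-classical monocytes, which patrol vessel walls, held a lower share than classical monocytes: 13.7 ± 1.54% against 17.9 ± 2.60% (SD, n = 6 libraries), a difference of -4.20 points in 6 of 6 libraries (exact permutation test, p = 0.0312, adjusted p = 0.0469). Smad4fl/fl 1 had 2 classical monocytes and was not used. Cycling alveolar macrophages held 13.6 ± 1.16%, and non-cycling ones 13.6 ± 0.766%. That difference was -0.027 ± 0.593 points, positive in 4 of 7 libraries (exact permutation test, p = 0.969), while cycling cells held more member UMIs per cell, 2007 to 3138 against 1146 to 1848.

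**Figure D2:**
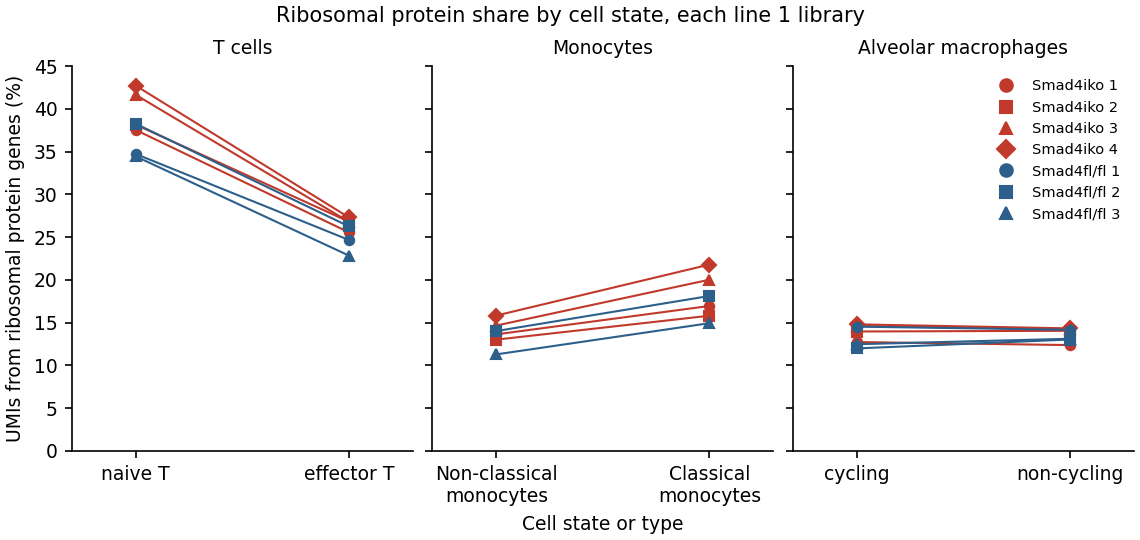
Share of UMIs from ribosomal protein genes (percent, y axis) in pairs of states or types of the same lineage (x axis); each line joins the values of 1 library, red for Smad4iko and blue for Smad4fl/fl. All 7 lines fall by 12.5 points on average between naive and effector T cells, all 6 rise by 4.20 points between non-classical and classical monocytes, and the lines of alveolar macrophages are near level.

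Other genes with terminal pyrimidine tracts and genes of ribosome synthesis were set beside the members as lists. The 19 other tract-bearing translation genes (elongation and initiation factors, Pabpc1, Tpt1, Rack1, Npm1 and others) took 3.93% of UMIs in T cells, 3.19% in cDC1, 1.06% in aCap and 1.06% in neutrophils. Members outweighed this list 9.09 times in T cells and 3.99 times in neutrophils, so members fell further than it between these types. The 32 ribosome biogenesis genes (nucleolar proteins such as Ncl, Fbl and Nop56) took 0.225% of UMIs in T cells and 0.0368% in neutrophils. The 78 mitochondrial ribosomal protein genes, which serve another ribosome, took 0.329% in T cells and 0.394% in alveolar macrophages, where the cytosolic members were far below T cells. They took 0.179% in neutrophils.

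Members were split fairly evenly between subunits in all 8 types. Large subunit members took 51.2 ± 0.798% of member UMIs in neutrophils, the lowest share, 51.5 ± 0.411% in T cells and 56.6 ± 0.665% in aCap, the highest (SD, n = 7). The 5 members with most UMIs were Rps24, Rps29 and Rps27 of the small subunit, Rplp1 of the acidic stalk and Rpl13 of the large subunit, together 12.9% of member UMIs. Rps24 took 3.12 ± 0.104% of member UMIs over the 7 libraries and varied little between them, between 3.03% and 3.31%. Rps29 took 2.90 ± 0.775% and varied widely, between 1.84% and 3.72%; Rps27 took 2.49 ± 0.554%, between 1.69% and 3.29%. Of the 83 members, 81 had at least 100 UMIs in every library; Rpl39l had 762 in all and Rpl10l 2. The distinct 50-base stretches in the last 300 bases of each member's coding transcripts were pooled and looked up in the transcripts of other genes. At least 50% of them were found there for 8 members (Rpl36a, Rpl35, Rpl10, Rps18, Rpl41, Rps27, Rpl9 and Rps10). The counts of these members are uncertain, since reads may have been split or dropped.

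The libraries fell into separate levels by the length of the members. The 20 members with the shortest coding sequence, 138 bases in Rpl41 to 357 in Rps20, were set apart after the data were seen. In T cells they took 28.3%, 29.0%, 33.6% and 32.9% of member UMIs in Smad4iko 1 to 4, against 24.5%, 33.2% and 24.9% in Smad4fl/fl 1 to 3. Smad4iko 3, Smad4iko 4 and Smad4fl/fl 2 were highest and Smad4fl/fl 1 and 3 lowest in each of the 8 types, so the levels crossed the genotypes. With these 20 members left out, T cells of all libraries lay between 24.2% and 26.3% of UMIs, where with them they lay between 32.2% and 39.2%. The range also narrowed in B cells, NK cells, cDC1 and gCap. In alveolar macrophages, aCap and neutrophils it narrowed little in points: 8.46% to 10.3%, 3.93% to 6.38% and 2.20% to 3.72% without the short members. With them these types lay at 12.4% to 14.4%, 5.82% to 8.45% and 3.24% to 5.08%. Leaving members out lowers every share, and relative to the lower shares the range in these types did not narrow. The order of the 8 types was unchanged in each of the 7 neighbouring pairs without the short members. The labels name no library or sequencing batch for these levels, and their part in the genotype comparison was tested only by leaving these members out.

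**Figure D3:**
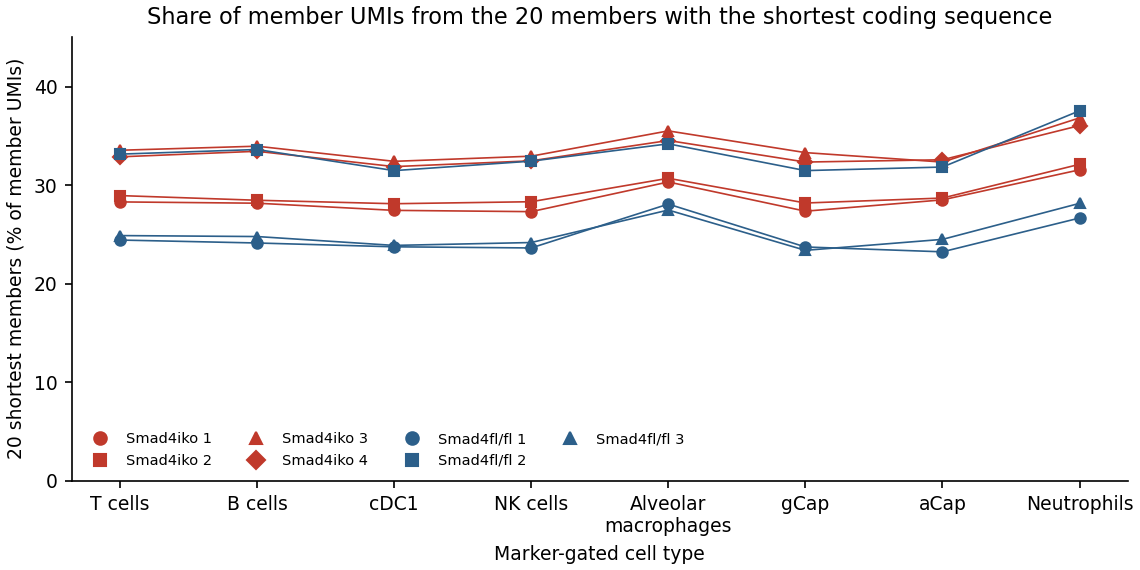
UMIs of the 20 members with the shortest coding sequence as a percentage of all member UMIs (y axis) in 8 marker-gated types (x axis), 1 line per library, red for Smad4iko and blue for Smad4fl/fl. Smad4iko 3, Smad4iko 4 and Smad4fl/fl 2 run together at the top and Smad4fl/fl 1 and 3 at the bottom in every type.

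Members shifted against one another between types, and those that shifted most did so largely in neutrophils. The range between types of a member's share of member UMIs had a median of 0.92 on the log2 scale over 81 members; it was 0.27 for Rps13 of the small subunit, the steadiest, and at least 1 for 33 members. The 12 members with the widest range had neutrophils as their highest or lowest type in 10 cases; the 12th was Rps18 (1.61) and the next, outside the group, Rpl37 (1.57). With counts scaled to the summed UMIs of the members, edgeR called a member different at an adjusted p under 0.05 and a log2 difference of at least 1 from the mean of the other 7 types. Of 648 gene-by-type tests, 11 were called higher and 19 lower, where 27.0% of tests over all genes were called higher and 29.4% lower. On this scale the median log2 difference of all genes was 0.49 in neutrophils, -1.46 in T cells and 1.75 in aCap. The shares of all genes called include this shift, so they do not measure chance for members. In neutrophils 5 of 81 members were higher and 12 lower, against 37.7% and 16.7% of all genes; the lower count is near the share of all genes. These calls depend on that scaling, which asks only how members moved against one another: scaled by TMM to all genes, 178 were called higher and 150 lower, against 18.0% and 18.9% of all tests, since the whole set differs between types.

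**Figure D4:**
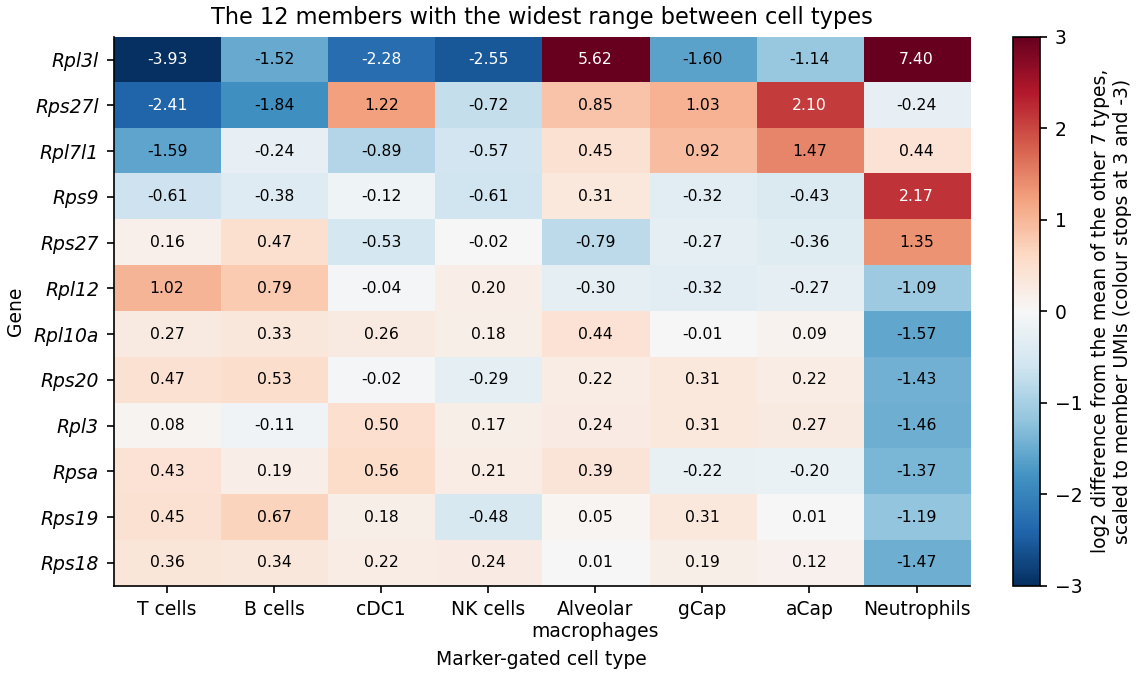
Log2 difference of each of 12 members (rows) in each cell type (columns) from the mean of the other 7 types, with counts scaled to the summed UMIs of all members; red is higher and blue lower, the colour stops at 3 and -3 and each cell prints its value. The neutrophil column holds Rpl3l, Rps9 and Rps27 above and the 7 members from Rpl12 to Rps18 below the other types.

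Rps9, a small subunit protein, stood out in neutrophils. It took 6.47%, 8.58%, 7.04% and 6.17% of member UMIs in neutrophils of Smad4iko 1 to 4, against 5.26%, 4.70% and 6.15% in Smad4fl/fl 1 to 3, and 1.17 ± 0.101% in T cells (n = 7). Every neutrophil library lay above every library of the other 7 types. On the scale of member UMIs the log2 difference from the other types was 2.17 ± 0.048 (SE; edgeR, adjusted p = 1.6e-40). As CPM, the count scaled to a fixed total of all UMIs, Rps9 was at 2730 to 2830 CPM in neutrophils of Smad4iko and 2265 to 2670 in Smad4fl/fl, and at 4071 to 4442 and 3760 to 4352 CPM in T cells. Rps9 was thus scarcer per UMI in neutrophils than in T cells, but far less so than the set.

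Rps27, Rps27a (made as a fusion with ubiquitin) and Rpl37 were the other members of ordinary abundance called higher in neutrophils, with log2 differences of 1.35 ± 0.038, 1.29 ± 0.040 and 1.25 ± 0.045 (SE; edgeR, adjusted p = 1.6e-35, 6.3e-34 and 4.9e-31). Rps27 took 5.62 ± 1.37% of member UMIs in neutrophils and 1.52 ± 0.236% in alveolar macrophages, its lowest type; it is one of the members with an uncertain 3′ end. The members lower in neutrophils included Rpl3, which lies near the site of peptide bond formation, Rpl10a, Rpl12 of the stalk base, Rpsa, also known as the laminin receptor, and Rps18, Rps19 and Rps20 of the head of the small subunit. Rpl10a took 0.251 ± 0.0652% of member UMIs in neutrophils and 0.836 ± 0.0359% in alveolar macrophages; its neutrophil value rested on 2209 UMIs. Rpsa took 0.568 ± 0.0767% in neutrophils and 1.83 ± 0.134% in cDC1, and Rpl3 0.278 ± 0.0744% and 0.896 ± 0.0749%. Rps20 took 0.644 ± 0.0945% in neutrophils and 2.12 ± 0.0879% in B cells, and Rps19 0.585 ± 0.0809% and 1.80 ± 0.0856%. For these members the neutrophil libraries did not overlap those of the type at the other end of the range. The types at the ends were picked from the same values, and most of the 81 members showed no such overlap. Rps3, with a range of only 0.39 on the log2 scale, was among them. The lack of overlap thus does not set these members apart.

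Rpl12 was the only member called higher in T cells, against 3.81% of all genes, at 1.02 ± 0.057 on the log2 scale (SE; edgeR, adjusted p = 4.1e-22). It took 1.93%, 1.90%, 1.41% and 1.63% of member UMIs in T cells of Smad4iko 1 to 4, against 2.14%, 1.59% and 2.21% in Smad4fl/fl 1 to 3. In neutrophils it took 0.574%, 0.371%, 0.399% and 0.416% in Smad4iko 1 to 4, against 0.501%, 0.555% and 0.777% in Smad4fl/fl 1 to 3. T cells were above neutrophils in every library. T cells were lowest for Rpl7l1 and Rps27l.

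The 3 members with the widest range were the paralogs Rpl3l, Rps27l and Rpl7l1. Rps27l, a p53-induced paralog of Rps27 in human cells, held 28.7 ± 2.63% as many UMIs as Rps27 in aCap, 20.9 ± 10.7% in cDC1, 17.8 ± 2.89% in alveolar macrophages, 14.4 ± 1.36% in gCap, 4.61 ± 1.78% in NK cells, 2.55 ± 0.449% in neutrophils, 1.72 ± 0.602% in B cells and 1.49 ± 0.598% in T cells (SD, n = 7). Endothelial and myeloid cells other than neutrophils lay at the upper end and lymphocytes at the lower end. Rps27l took 0.489%, 0.587%, 0.680% and 0.685% of member UMIs in aCap of Smad4iko 1 to 4, against 0.403%, 0.751% and 0.406% in Smad4fl/fl 1 to 3. In T cells it took 0.0384 ± 0.0119% (n = 7). On the scale of member UMIs its log2 difference from the other types was 2.10 ± 0.132 in aCap and -2.41 ± 0.174 in T cells (SE; edgeR, adjusted p = 1.8e-20 and 5.8e-18). Scaled by TMM to all genes, aCap did not pass (0.26, adjusted p = 0.0686) while T cells stayed lower (-0.93, adjusted p = 4.1e-08), so the aCap excess is one over the other members.

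Rpl7l1 shared with Rps27l the ends of the order, aCap highest and T cells lowest, but not the middle. It held 9.82 ± 2.77% as many UMIs as Rpl7 in aCap, 6.55 ± 1.18% in gCap and 1.81 ± 0.262% in T cells. In neutrophils it held 6.49 ± 1.27%, near gCap, and in cDC1 2.74 ± 0.690%, near the lower end. Its aCap value rested on 430 UMIs in all, and scaled by TMM its aCap difference was -0.29 in place of 1.47 on the scale of member UMIs. Rpl22l1, which can take the place of Rpl22 in mice without it, was the most abundant paralog, with a range of 1.24 on the log2 scale, narrower than that of Rps18. It held 64.3 ± 6.45% as many UMIs as Rpl22 in NK cells, 50.2 ± 4.14% in T cells and 21.7 ± 2.33% in cDC1. The libraries of NK cells and cDC1 did not overlap, but these were picked as its highest and lowest types from the same values.

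Among the 8 types, Rpl3l was read almost only in phagocytes: 489 UMIs in neutrophils and 1381 in alveolar macrophages, against 10 in T cells, 13 in B cells, 4 in NK cells, 3 in gCap, 2 in cDC1 and 1 in aCap. In neutrophils its level was 18.1, 15.2, 39.0 and 28.4 CPM in Smad4iko 1 to 4, against 8.94, 20.4 and 9.06 in Smad4fl/fl 1 to 3, and the genotypes overlapped. In alveolar macrophages it was 16.2, 13.5, 23.1 and 30.2 CPM in Smad4iko 1 to 4, against 23.1, 27.6 and 13.7 in Smad4fl/fl 1 to 3. Msrb1, a selenoprotein gene on the same strand, begins 498 bases after the annotated end of Rpl3l (GRCm38, chr17:24727820-24736143), and its level averaged 3860 CPM in neutrophils, 893 in alveolar macrophages and 40.7 to 56.3 in the other types. Reads that run between these neighbours cannot be told apart from Rpl3l transcripts in the count files. Rpl39l had 466 UMIs in alveolar macrophages, 208 in T cells and at most 10 in each other type, and no UMI in gCap or aCap beside 24641 and 5940 UMIs of Rpl39.

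Between genotypes, the share of members was higher in Smad4iko B cells and lower in Smad4iko aCap, with no overlap of the mice, but no type passed the test after adjustment. B cells held 30.3%, 30.4%, 32.6% and 32.5% in Smad4iko 1 to 4, against 27.2%, 29.4% and 26.1% in Smad4fl/fl 1 to 3, a difference of 3.85 points (two-sided exact permutation test over 35 splits, p = 0.0286, the smallest possible; adjusted p = 0.114 over 8 types). aCap held 6.43%, 6.80%, 5.82% and 6.33% in Smad4iko 1 to 4, against 7.96%, 8.34% and 8.45% in Smad4fl/fl 1 to 3, a difference of -1.90 points (p = 0.0286, exact; adjusted p = 0.114). In the other 6 types the genotypes overlapped: NK cells +3.43 points, T cells +3.15, cDC1 +2.26, gCap +0.45, alveolar macrophages +0.33 and neutrophils -0.57 (exact permutation tests, adjusted p between 0.229 and 0.657). Neutrophils also differed in the level of their gate markers. These took 16.5% to 22.8% of neutrophil UMIs in Smad4iko and 4.99% to 11.2% in Smad4fl/fl. The part of this in the share of members in neutrophils was not tested.

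The 20 short members carried much of the B cell difference. Without them B cells held 21.8%, 21.7%, 21.5% and 21.6% in Smad4iko 1 to 4, against 20.6%, 19.5% and 19.6% in Smad4fl/fl 1 to 3, a difference of 1.72 points with the mice still apart. In aCap it was -1.64 points without them, at 4.60%, 4.85%, 3.93% and 4.27% in Smad4iko 1 to 4, against 6.11%, 5.68% and 6.38% in Smad4fl/fl 1 to 3. The aCap means were 4.41% in Smad4iko and 6.06% in Smad4fl/fl without them, and 6.35% and 8.25% with them. Relative to the share, the aCap difference thus did not shrink. Without the short members the difference was 1.80 points in NK cells, with the mice apart (exact permutation test, p = 0.0571, adjusted p = 0.152), 1.05 in T cells and 0.76 in cDC1, both with overlap. Among the 3 libraries highest in short members, Smad4iko 3 and 4 lay above Smad4fl/fl 2 in B cells and below it in aCap.

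The aCap difference moved with depth. Smad4iko aCap had median UMIs of 3323 to 4757, against 5598 to 7498 in Smad4fl/fl, and when aCap of each library were split into 3 equal groups by UMIs, the deepest had a share of 8.34% and the shallowest 5.16%, in 7 of 7 libraries. In aCap with 3000 to 6000 UMIs (14 to 63 cells per library) the share was 4.20%, 5.73%, 4.95% and 5.14% in Smad4iko 1 to 4, against 5.47%, 6.89% and 5.51% in Smad4fl/fl 1 to 3. There the genotypes overlapped and the difference was -0.95 points (exact permutation test, p = 0.114). In B cells of the same depth the difference was 4.10 points, with the mice apart. The log2 ratio of aCap to gCap shares, which sets the endothelial types of each library against each other, was -0.82 in Smad4iko and -0.38 in Smad4fl/fl (exact permutation test, p = 0.0286, adjusted p = 0.0571 over 4 such ratios). Against T cells the ratio was -2.55 in Smad4iko and -2.04 in Smad4fl/fl (exact, p = 0.0286, adjusted p = 0.0571), and against neutrophils it was 0.67 and 0.86 (exact, p = 0.4). The fourth ratio, of T cells to alveolar macrophages, was 1.43 and 1.34 (exact, p = 0.343). The ratios of aCap to gCap and to T cells reuse aCap shares that already lay apart between genotypes. They are therefore no separate support for the aCap difference. The 19 other tract-bearing genes were 0.908 ± 0.0768% of aCap UMIs in Smad4iko (n = 4) and 1.25 ± 0.109% in Smad4fl/fl (n = 3).

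Of the 4 further types, interstitial macrophages held 17.0%, 16.7%, 18.3% and 16.2% in Smad4iko 1 to 4, against 14.0%, 11.0% and 16.0% in Smad4fl/fl 1 to 3 (exact permutation test, p = 0.0286, adjusted p = 0.114 over 12 types). These values rest on 22 to 111 cells per library. In fibroblasts the difference was 2.27 points (exact permutation test, p = 0.0571, adjusted p = 0.171 over 12 types). The mice were barely apart there, at 14.048% in Smad4iko 1 and 14.045% in Smad4fl/fl 2. Smad4fl/fl 1 lay lowest at 10.9%, and Smad4iko 3 had 24 fibroblasts. Naive T cells differed by 4.20 points and effector T cells by 2.03 points between genotypes, each with overlap (exact permutation tests, p = 0.171 and 0.0857).

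Fitted gene by gene, no member was called between genotypes in any of the 8 types: 0 of 644 tests passed an adjusted p of 0.05 in edgeR, where 0.0282% of all 70923 tests did. At an unadjusted p under 0.05 there were 118 (58 higher and 60 lower in Smad4iko), against 7.57% of all tests. These counts moved with the libraries: without Smad4fl/fl 3 there were 13 higher and 54 lower, and without Smad4fl/fl 2 there were 161 and 70. Over all genes 5216 of 73455 tests passed that level without Smad4fl/fl 3, and 5969 of 73579 without Smad4fl/fl 2. DESeq2, which adjusts over its own set of genes, called 54 members, against 0.511% of all tests. Of these, 53 were lower in Smad4iko aCap, where DESeq2 adjusted over only 786 genes and called 10.2% of them lower, and 1 was higher in Smad4iko B cells, against 0.115% of all genes there.

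In aCap 78 of 80 tested members had a negative log2 difference, with a median of -0.47 (all genes 0.0043). Of the 80, 58 were lower at an unadjusted p under 0.05, against 7.18% of all genes, and 46 had all Smad4iko libraries below all Smad4fl/fl libraries, against 4.09%. The 58 became 52 to 60 without 1 library and 34 with a covariate for Smad4iko 3 and 4. Rps2, a small subunit protein at the mRNA entry, had the smallest p. It was at 609, 740, 545 and 567 CPM in Smad4iko 1 to 4, against 1010, 1064 and 1144 in Smad4fl/fl 1 to 3, so no mouse overlapped. The log2 difference was -0.85 ± 0.15 (SE; edgeR, adjusted p = 0.0659). Rps24 was at 1279 ± 67.8 CPM in Smad4iko and 1902 ± 162 in Smad4fl/fl (SD, n = 4 and 3; log2 difference -0.62 ± 0.13 SE, adjusted p = 0.106). Scaled to the summed UMIs of the members, Rps2 stayed lower (-0.43, adjusted p = 0.0493) and Rpl41 was higher (0.52, adjusted p = 0.0344), the only calls on that scale over the 8 types, against 1.38% of all tests. In aCap alone that scale called 959 of 5796 genes higher and 8 lower, with an all-gene median of 0.43.

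In B cells the median log2 difference of 80 members was 0.25 (all genes -0.0036); 27 were higher at an unadjusted p under 0.05, against 2.93% of all genes, and 22 had all Smad4iko libraries above, against 1.79%. The 27 became 4 without Smad4fl/fl 3, 9 without Smad4iko 4, 12 without Smad4fl/fl 1, 13 without Smad4iko 3 and 44 without Smad4fl/fl 2, and 4 with the covariate for Smad4iko 3 and 4. Rps10, a small subunit protein with an uncertain 3′ end, had the smallest p there and in NK cells. In B cells it was at 3793, 4066, 4611 and 4251 CPM in Smad4iko 1 to 4, against 3361, 2763 and 2876 in Smad4fl/fl 1 to 3 (log2 difference 0.61 ± 0.14 SE; edgeR, adjusted p = 0.640). In NK cells the median was 0.30 (all genes 0.019); 21 of 80 were higher at an unadjusted p under 0.05, against 4.02% of all genes, and 23 had all Smad4iko libraries above, against 2.74%. The 21 became 4 without Smad4fl/fl 3, 5 without Smad4fl/fl 1 or Smad4iko 4, 7 without Smad4iko 3 and 53 without Smad4fl/fl 2, and 5 with that covariate. Rps10 differed there by 0.62 ± 0.16 (SE; edgeR, adjusted p = 0.559). With library size alone as the scale these medians were 0.13 in B cells (all genes -0.12) and 0.21 in NK cells (all genes -0.072). The medians of members and of all genes thus both moved down with that scale.

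In T cells Rpl39l, with 208 UMIs there in all, had the smallest p: 4.40, 3.74, 3.07 and 2.91 CPM in Smad4iko 1 to 4, against 1.79, 1.55 and 1.90 in Smad4fl/fl 1 to 3 (log2 difference 1.09 ± 0.26 SE; edgeR, adjusted p = 0.235). In neutrophils it was Rpl22l1, at 66.2 ± 9.01 CPM in Smad4iko and 131 ± 40.0 in Smad4fl/fl (SD, n = 4 and 3; log2 difference -0.80 ± 0.25 SE, adjusted p = 0.381), with the mice apart. There 17 of 81 members had all Smad4iko libraries below, against 7.85% of all genes, and at an unadjusted p under 0.05 there were 2 higher and 2 lower, against 4.64% and 5.26%. Rpl41 had the smallest p in cDC1 (0.65 ± 0.19 SE, adjusted p = 1.00) and gCap (0.48 ± 0.16 SE, adjusted p = 0.834), and Rps2 in alveolar macrophages (-0.23 ± 0.12 SE, adjusted p = 0.829), where no member passed an unadjusted p of 0.05, against 3.31% of all genes higher and 2.81% lower. Rpl41 is the shortest member and, with its uncertain 3′ end, among those that set the libraries apart by length.

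**Figure D5:**
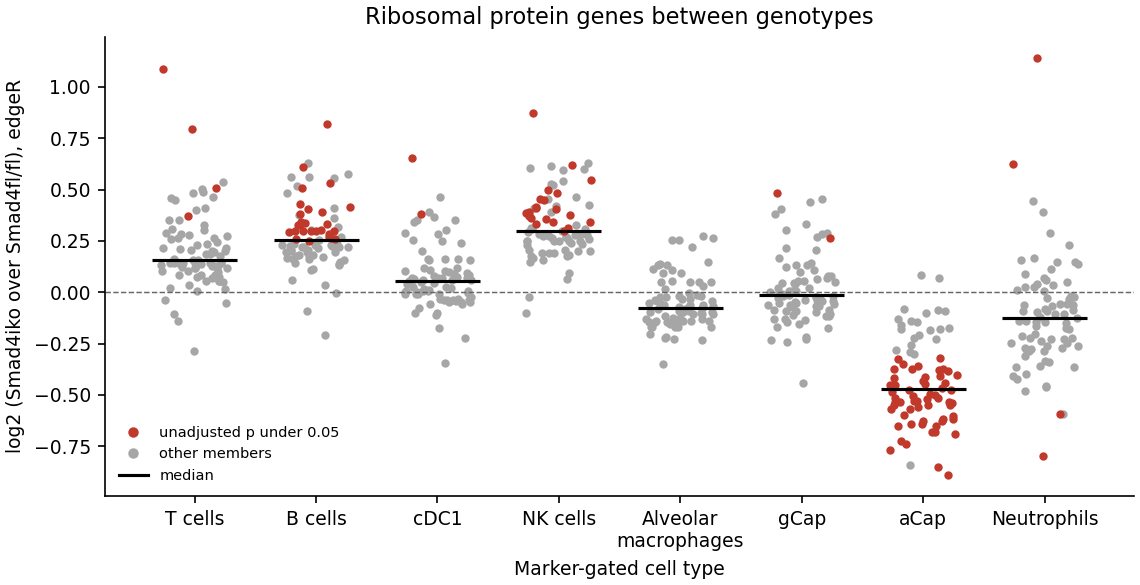
Log2 difference of Smad4iko over Smad4fl/fl (edgeR, y axis) for each tested ribosomal protein gene in 8 marker-gated types (x axis); red points passed an unadjusted p under 0.05 and black lines are medians. The aCap points lie almost wholly below 0, with a median of -0.47, and those of B and NK cells mostly above it; no point passed an adjusted p of 0.05.

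Rpl32, the only member within 25 Mb of the Rosa26 locus on chromosome 6 (2.73 Mb away), lies on the chromosome that carries the Cre insertion. Its log2 difference lay between -0.45 in aCap and 0.34 in NK cells, and no type passed (edgeR, adjusted p between 0.167 and 1.00). On the scale of member UMIs it was -0.019 in aCap, so it moved with the set.

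Of the lists set beside the members, no gene passed an adjusted p of 0.05 in any of the 8 types. Of the 19 other tract-bearing genes, 13 were lower in Smad4iko aCap at an unadjusted p under 0.05, against the 7.18% of all genes, with a median of -0.46, close to that of the members. Of the ribosome biogenesis genes, 15 of 32 could be tested in aCap and 2 were lower at that level, with a median of -0.20. Of the 16 genes of mTOR and Myc control, 12 could be tested in aCap and none passed it, with a median of -0.031. Of the 78 mitochondrial ribosomal protein genes, 60 could be tested in aCap, with 1 higher, 1 lower and a median of -0.10.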

How the data were processed

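Counts were used as the authors deposited them: whole-number UMI counts per gene and barcode from Cell Ranger 6.1.1, per the file headers; fastp, UMI-tools and the build mm10 are named in the submitters' processing notes, and the filter on barcodes is not given in the sources used here. Cells were kept at 600 or more UMIs, 300 or more genes and at most 20% mitochondrial UMIs. A marker scored when its share in a cell was at least 2 times the library mean, and a gate needed 3 scored markers and 2 times the score of the next gate; cells that passed several gates, doublets among them, were left out, and no doublet caller was run. UMIs were summed per mouse and type. Shares were compared by exact permutation; genes were tested with edgeR 4.0.16 (quasi-likelihood test, TMM, filterByExpr, Benjamini-Hochberg over all genes of a type, called at an adjusted p under 0.05), and DESeq2 1.42.0 was an alternative. The fits were tested on simulated data. The members, gene lists and comparisons were chosen with earlier results of these data known. Named members were the 5 with most UMIs, the 12 with the widest range between types, the paralogs, the smallest p per type and those near Rosa26; Rps27a and Rpl37 (calls in neutrophils), Rps13, Rps24 in aCap and Msrb1 were named after their values were seen. Libraries are separate mice. The 95% exact (Clopper-Pearson) interval of a share was 24.8% to 25.0% for cDC1 of Smad4iko 3, the library with fewest cDC1, covers counting error only and is narrower than the spread between mice.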

Additional observations from a re-analysis of the deposited data

Results flagged for a closer look

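The share of ribosomal protein genes in alveolar macrophages was 12.4% in Smad4iko 1, lower than the 14.1%, 14.2% and 14.4% in Smad4iko 2, 3 and 4, a gap wide against the whole range of the group by Dixon's criterion. Smad4fl/fl lay at 14.3%, 12.9% and 13.1%. Alveolar macrophages of Smad4iko 1 had the highest median UMIs, 14957, against 9975.5 to 12970 in Smad4iko 2 to 4. Of the 8 groups of 4 libraries tested in this way, chance flags about 1 in 20.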

How the results depend on the processing

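Cell type differences kept their direction under the alternatives run, except that NK cells lay 0.23 points below the mean of the other types with the median over cells (-0.23). The difference of cycling from non-cycling alveolar macrophages had no stable sign: 0.048 with the median over cells, 0.14 without the 20 shortest members, -0.11 to 0.14 without 1 library. Without 1 library, naive minus effector T cells was 11.96 to 12.86 points and non-classical minus classical monocytes -4.48 to -3.84, with adjusted p up to 0.0938, since fewer libraries allow no smaller p. Between genotypes, alveolar macrophages were at -0.19 without Smad4iko 3 and 4 and at -0.18 without the 20 shortest members, and gCap at -0.12 without those members. The B cell difference was 2.77 points without Smad4iko 3 and 4, and 3.10 to 4.79 without 1 library; that of aCap was -1.63, and -2.05 to -1.73. In aCap the mice overlapped with the median over cells and without the deepest 10% of cells (exact p = 0.0571 each).

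Members called between genotypes numbered 54 with DESeq2, 25 with no filter on low counts, 2 on the scale of member UMIs and 0 or 1 without 1 library. The calls without Smad4fl/fl 2 (Rps6) and without Smad4iko 2 (Rps2) were both in aCap. Over all genes, 0.511% of tests were called with DESeq2 and 1.38% on the scale of member UMIs. With no filter, 312 of 139452 tests over all genes were called higher and 672 lower. In aCap the fit with no filter called 24 members lower, against 429 of 15780 genes. Departures by type numbered 178 higher and 150 lower with TMM, and 151 and 132 with all UMIs as library size, where the whole set moves. Without 1 library they numbered 10 to 13 and 15 to 19. Of 96360 tests over all genes, TMM called 18.0% higher and 18.9% lower. With all UMIs as library size, 19681 of these tests were called higher and 20340 lower. Signs that turned were those of Rps9 in T cells (0.88 with TMM, 0.84 with all UMIs), Rps27 in neutrophils (-0.71 with all UMIs), Rpl7l1 in aCap (-0.29 with TMM), and Rpl32 between genotypes on the scale of member UMIs in B cells (-0.0082), NK cells (-0.00078) and cDC1 (-0.048), and in cDC1 without 1 library (-0.0094 without Smad4fl/fl 3, up to 0.097).

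Same-numbered libraries did not deviate together in every type (correlation -0.15 to 0.34, over 0.1 in 16 of 24 pairs), so the numbers were not taken as pairs. With the replicate block the difference was 3.50 points in B cells and -1.90 in aCap (smallest p 0.25), and no member was called. At an unadjusted p under 0.05 the block gave 11 members higher and 56 lower over the 8 types, 2 higher in B cells and 3 in NK cells. Over all genes 4439 of 70923 tests passed that level with the block. Of all genes, 204 of 9058 were higher in B cells and 299 of 9647 in NK cells. Alternatives chosen after seeing the data were hemoglobin UMIs left out, the 20 shortest members left out, cells of 3000 to 6000 UMIs, and the 4 further types. Precision is limited by 3 and 4 mice and, in aCap, by 49 to 379 cells per library.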
